A study of Mus musculus with 7 samples.

Results

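The 30 genes described here make sterols and fatty acids or control that synthesis. They were taken by gene symbol from a count table of 26130 genes and comprised 7 enzymes of the mevalonate steps, 11 of the steps from squalene to cholesterol, 5 genes of the SREBP system, the sterol carrier Stard4 and 6 genes of fatty acid synthesis. Each of the 30 was in the table, and each passed the filter on low counts, as did 13665 genes in all. RNA came from myeloid cells sorted from lungs of mice with the reporters Fth1-mScarlet and Lyz2GFP, so that red fluorescence reports the ferritin heavy chain gene and green fluorescence the lysozyme gene of myeloid cells. Sorted cells were Lyz2GFP+CD11b+Ly6C+Ly6G-, which admits monocytes and macrophages derived from them and leaves neutrophils out, and they were split at low or high Fth1-mScarlet. LPS, a component of bacterial outer membranes that starts inflammation, was given into the trachea at 20 µg in 50 µl 3 days before the sort, and other mice stayed untreated. The groups were untreated Fth1-low cells (n = 2 libraries), LPS Fth1-low cells (n = 2) and LPS Fth1-high cells (n = 3); both reporters were carried by mice of each group, the labels state no strain or age, and they do not say whether a library is 1 mouse or a pool. The p-values therefore rest on the spread among libraries, whose source is not labelled; the sex-linked transcripts given further on differ between libraries of 1 group, so that spread can hold differences between animals.

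Cholesterol is built from acetyl-CoA through mevalonate, isoprenoids and squalene, and fatty acids from acetyl-CoA through malonyl-CoA. The transcription factors SREBP2 (gene Srebf2) and SREBP1 (Srebf1) switch both pathways on. Scap carries them out of the endoplasmic reticulum when membrane sterol is low, and Insig1 and Insig2 hold them back when sterol is plentiful. Insig1 and Srebf2 are themselves SREBP targets. Macrophages also take up cholesterol from lipoproteins and dead cells, and they release it through the exporters ABCA1 and ABCG1 under control of the LXR nuclear receptors.

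SREBPs bind sterol response elements or E-boxes, usually beside sites for NF-Y and Sp1. The promoter windows of the 4 genes that were lower in each of the 3 comparisons (Idi1, Cyp51, Msmo1 and Insig1) and of Hmgcs1 are shown because they carry these letters in different arrangements. The sequences are from RefSeq on GRCm38.p6 and run 5′ to 3′ on the gene's strand, from 250 bases before to 50 after the RefSeq start. They lie at chr13:8885356-8885655 (plus strand) for Idi1, chr5:4104648-4104947 (minus) for Cyp51, chr8:64733529-64733828 (minus) for Msmo1, chr5:28071162-28071461 (plus) for Insig1 and chr13:119690101-119690400 (plus) for Hmgcs1. Capitals mark, on either strand, the sterol response element TCACNCCAC, the E-box CACGTG, the NF-Y box CCAAT and the Sp1 box GGGCGG.
Idi1: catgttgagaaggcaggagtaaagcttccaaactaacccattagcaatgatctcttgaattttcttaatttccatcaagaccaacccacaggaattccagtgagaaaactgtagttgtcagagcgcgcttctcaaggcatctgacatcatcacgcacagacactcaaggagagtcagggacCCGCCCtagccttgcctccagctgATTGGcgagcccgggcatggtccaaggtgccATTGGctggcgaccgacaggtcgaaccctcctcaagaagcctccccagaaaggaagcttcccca
Cyp51: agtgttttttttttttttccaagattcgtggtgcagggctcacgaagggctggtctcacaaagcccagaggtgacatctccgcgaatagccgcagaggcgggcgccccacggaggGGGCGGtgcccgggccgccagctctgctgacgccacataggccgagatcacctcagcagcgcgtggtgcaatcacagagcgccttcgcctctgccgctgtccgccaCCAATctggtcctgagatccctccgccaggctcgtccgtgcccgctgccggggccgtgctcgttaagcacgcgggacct
Msmo1: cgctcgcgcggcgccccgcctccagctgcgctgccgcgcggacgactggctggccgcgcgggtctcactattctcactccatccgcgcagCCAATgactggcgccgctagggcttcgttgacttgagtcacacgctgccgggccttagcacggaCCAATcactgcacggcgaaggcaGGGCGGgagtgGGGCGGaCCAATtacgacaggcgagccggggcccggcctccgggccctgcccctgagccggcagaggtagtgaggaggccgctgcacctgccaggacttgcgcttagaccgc
Insig1: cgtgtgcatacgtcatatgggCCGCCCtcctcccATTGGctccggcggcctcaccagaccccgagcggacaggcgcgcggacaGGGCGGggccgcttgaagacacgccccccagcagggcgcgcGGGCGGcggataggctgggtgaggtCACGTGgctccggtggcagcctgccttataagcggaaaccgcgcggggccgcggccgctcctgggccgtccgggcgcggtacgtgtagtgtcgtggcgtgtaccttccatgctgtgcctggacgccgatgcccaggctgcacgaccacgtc
Hmgcs1: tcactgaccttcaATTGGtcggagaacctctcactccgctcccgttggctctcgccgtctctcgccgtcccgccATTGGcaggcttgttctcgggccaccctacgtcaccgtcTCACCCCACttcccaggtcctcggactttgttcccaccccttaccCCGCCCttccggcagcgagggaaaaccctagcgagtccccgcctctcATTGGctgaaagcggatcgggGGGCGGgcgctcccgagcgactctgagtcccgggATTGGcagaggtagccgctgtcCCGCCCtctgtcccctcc
Idi1 carried 2 NF-Y boxes and 1 Sp1 box, Cyp51 1 of each, Msmo1 3 and 2, and Insig1 1 NF-Y box, 3 Sp1 boxes and an E-box whose first base lies 101 bases before the start. In Hmgcs1 the sterol response element began 137 bases before the start, among 4 NF-Y and 3 Sp1 boxes, and no motif overlapped another in these 5 windows. RefSeq windows were matched for 24 of the 30 genes, 32 windows in all. An NF-Y box was in 65.6% of them against 37.4% of all 32851 promoter windows, and a Sp1 box in 75% against 35.7%. The E-box stood in 18.8% against 7.15%, and the sterol response element in 3.12% (the 1 Hmgcs1 window) against 1.24%. These matches are letters in a fixed window and do not show binding. Only the letters given were searched, so a window without a match may still hold an element spelled otherwise.

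The summed level of the 30 genes was highest in untreated Fth1-low cells, lower in LPS Fth1-low cells and lowest in LPS Fth1-high cells, an order that 8 of the 30 genes showed singly without overlap. Levels are in CPM, the share of a library's counts with library sizes scaled by TMM, changes are log2 values ± SE, and a gene was called at a Benjamini-Hochberg adjusted p below 0.05 in edgeR's quasi-likelihood test over all genes tested. The summed CPM of the 30 genes was 1662 and 2336 in the untreated libraries, 1167 and 1214 in LPS Fth1-low, and 976, 1070 and 907 in LPS Fth1-high. No group overlapped another on that sum, in which genes of high level weigh most. By role, the LPS groups overlapped on the summed CPM of the mevalonate steps (151 and 191 in Fth1-low, 109, 189 and 138 in Fth1-high). They also overlapped on that of fatty acid synthesis (398 and 389 in Fth1-low, 420, 375 and 329 in Fth1-high). The squalene to cholesterol steps, the SREBP system and Stard4 did not overlap. In sorted bulk samples, fewer cells of a type and less RNA per cell cannot be told apart. LPS Fth1-high against untreated Fth1-low cells differs in treatment and gate, whose parts cannot be told apart, and the 3 comparisons share libraries.

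Between LPS Fth1-high and untreated Fth1-low cells, 14 of the 30 genes were called lower, against 11.9% of all genes tested, and 0 were called higher, against 12.4%. The median log2 change of the 30 was -0.89, where that of all genes tested was 0.03. Between LPS Fth1-low and untreated Fth1-low cells 5 were called lower (0.629% of all genes) and 0 higher (2.99%), with medians of -0.80 and -0.05; the change was below 0 for 26 of the 30 and above 0 for 4. Between the LPS gates 4 were lower in Fth1-high (4.57% of all genes) and 0 higher (3.68%), with medians of -0.26 and 0.04. At an unadjusted p below 0.05 edgeR gave 0, 0 and 1 of the 30 as higher in these comparisons, the 1 being Insig2 between the LPS gates, and DESeq2 and limma-voom called 0 higher after adjustment. Counting libraries without a test, every LPS Fth1-high library lay below every untreated one for 15 of the 30 genes (27.8% of all genes). The same held for 19 between LPS Fth1-low and untreated (23.2%) and for 11 between the LPS gates (17.1%). For 8 genes, 26.7% of the 30, all 3 groups were separate and in that falling order, against 5.77% of all genes. That count ignores counting error, which was large in LPS Fth1-low replicate 1. Exact Poisson 95% intervals there reached a neighbouring group for Cyp51 (14.1 to 41.4 CPM), Fdps (11.6 to 37.2) and Stard4 (8.03 to 30.8). The same held for Elovl6 (2.72 to 19.5) and, narrowly, Msmo1 (28.4 to 63.8). The intervals of Idi1, Srebf2 and Insig1 reached neither neighbouring group.

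**Figure D1:**
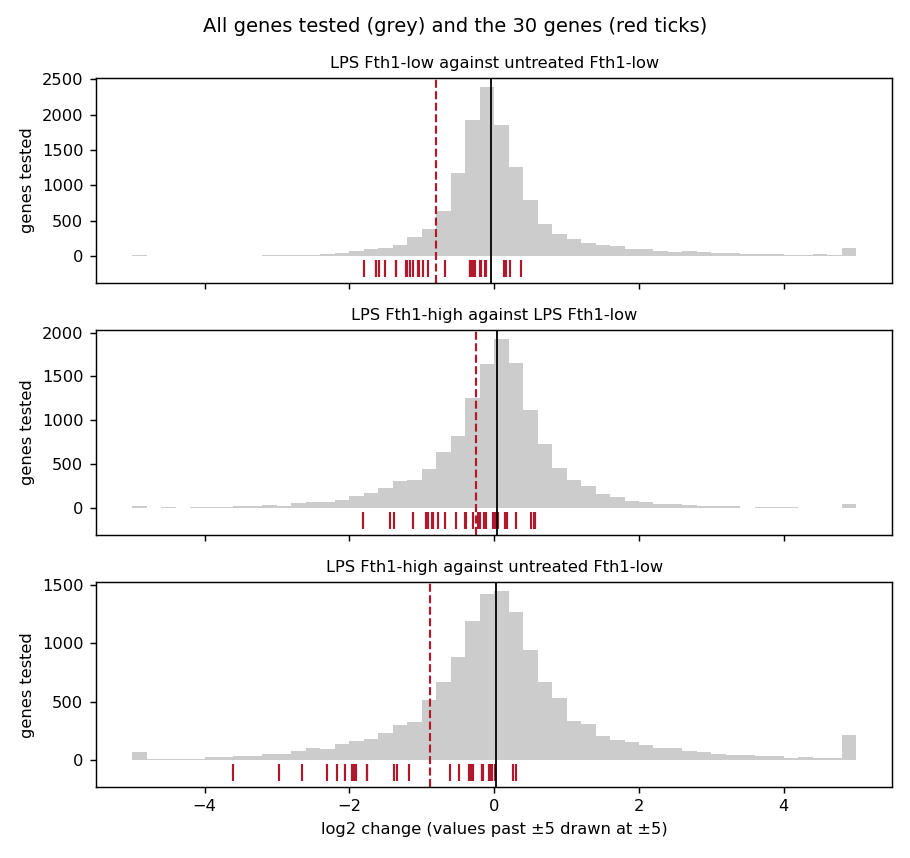
Histograms of the log2 change of all 13665 genes tested in each comparison (grey; values past 5 in size are drawn at 5), with the 30 sterol and fatty acid synthesis genes as red ticks. The dashed red line is the median of the 30 (-0.80, -0.26 and -0.89 from top to bottom) and the black line that of all genes.

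Library depth bears on these values. Total counts ran from 10459703 to 27997007 in 6 libraries, but LPS Fth1-low replicate 1 held 637787, so that 1 count there stood for 1.67 CPM, and 19.5% of its counts were ribosomal RNA (0.705% to 8.42% elsewhere). Across genes, which are not independent replicates, Pearson's r of log2 CPM was 0.863 within the LPS Fth1-low pair and 0.960 to 0.980 within the other groups. Fth1, the gate gene, stood at 1786 and 1672 CPM in untreated, 2970 and 4825 in LPS Fth1-low and 13230, 21000 and 20473 in LPS Fth1-high libraries. The summed CPM of 8 monocyte and macrophage markers was 12343 to 18705 over all libraries, of which Lyz2 held 6140 to 12500 CPM. Single markers of that list differed between groups, as given further on. The first 3 neutrophil markers (Ly6g, Mpo and Elane) had at most 11 counts in any library. All 11 neutrophil markers summed to 62.5 to 333 CPM, highest in the LPS Fth1-low libraries (166 to 333 CPM).

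**Figure D2:**
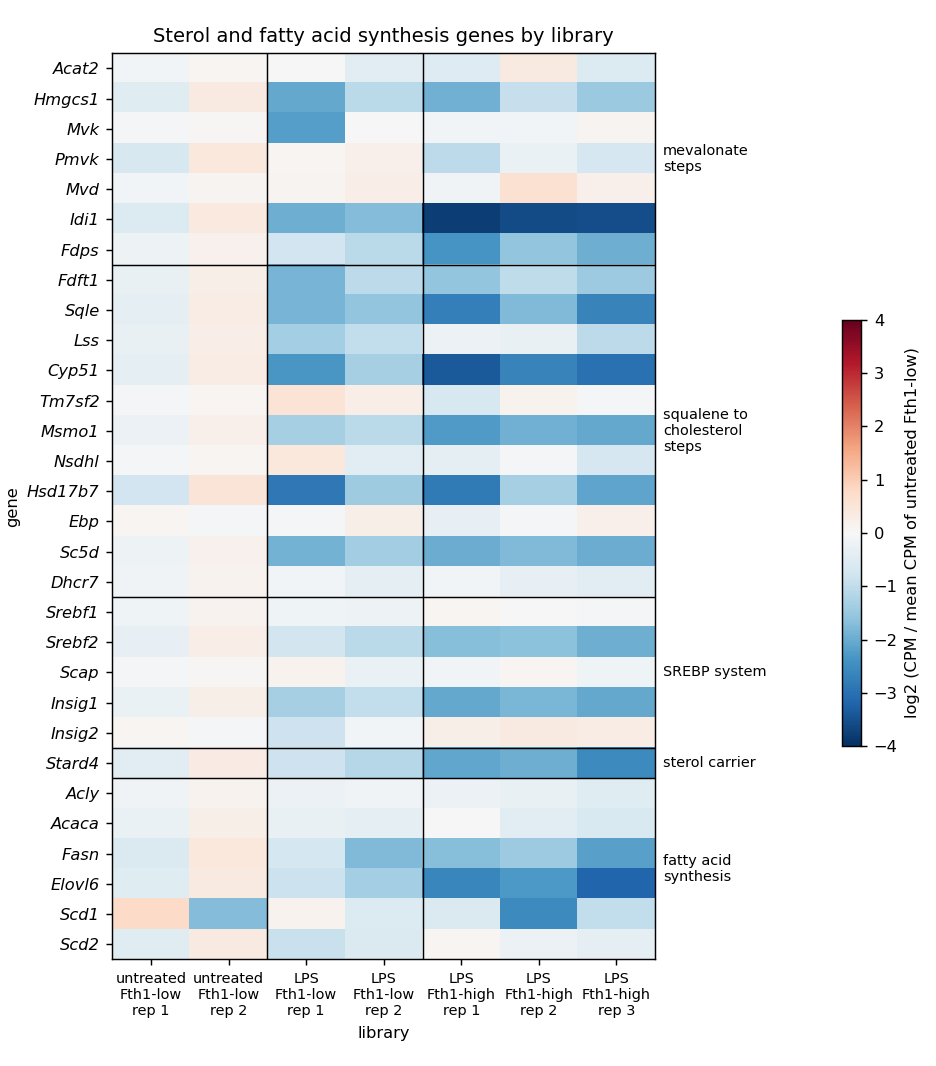
Level of each of the 30 genes in each of the 7 libraries, as log2 of CPM over the mean CPM of the untreated libraries (blue lower, red higher), ordered by role. Idi1 and Cyp51 are the darkest rows in the LPS Fth1-high libraries, and Mvd, Ebp, Srebf1 and Scap stay pale in every library.

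The mevalonate steps fell at particular enzymes. In LPS Fth1-high against untreated cells 3 of 7 genes were called lower (42.9%, against 11.9% of all genes). Their median log2 change was -0.61, against 0.03 for all genes. In each of the other comparisons 1 of 7 was called lower (14.3%), against 4.57% of all genes between the LPS gates and 0.629% with LPS. Idi1, the isomerase that makes the reactive isoprenoid dimethylallyl diphosphate, changed most of the 30. It was 48.1 and 93.0 CPM in untreated, 18.4 and 21.0 in LPS Fth1-low, and 5.24, 5.93 and 6.08 in LPS Fth1-high libraries. The 3 groups lay far apart, and the LPS Fth1-high libraries sat within 1 CPM of each other. Idi1 fell by 3.61 ± 0.28 in LPS Fth1-high against untreated (adjusted p = 2.39e-05, 12.2-fold lower), by 1.82 ± 0.30 in the LPS Fth1-high gate against the low gate (adjusted p = 0.00598), and by 1.79 ± 0.33 in LPS Fth1-low against untreated (adjusted p = 0.017). The value of 18.4 CPM rests on 11 counts, with an exact Poisson 95% interval of 9.19 to 33.0 CPM for counting error. Idi1 (chromosome 13, 8885501 to 8892451, plus strand, GRCm38) overlaps Gm48574 on the opposite strand.

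Fdps, which joins isoprenoid units to farnesyl diphosphate, also separated all 3 groups, although the counting interval of LPS Fth1-low replicate 1 reached both neighbouring groups. Its level was 32.1 and 41.9 CPM in untreated, 21.8 and 17.5 in LPS Fth1-low, and 7.17, 12.4 and 9.51 in LPS Fth1-high libraries. It fell by 1.92 ± 0.26 in LPS Fth1-high against untreated (adjusted p = 5.63e-04), while the steps of -0.95 ± 0.29 between the gates (adjusted p = 0.084) and -0.98 ± 0.32 with LPS (adjusted p = 0.176) were not called. Hmgcs1, which makes the HMG-CoA that precedes mevalonate, was 97.8 and 176 CPM in untreated, 33.5 and 65.3 in LPS Fth1-low, and 36.2, 72.9 and 48.9 in LPS Fth1-high libraries. The LPS groups overlapped each other and lay below both untreated libraries. Hmgcs1 fell by 1.38 ± 0.36 in LPS Fth1-high against untreated (adjusted p = 0.0219); this call was lost without untreated replicate 2 (-0.89, adjusted p = 0.196) or LPS Fth1-high replicate 3 (adjusted p = 0.0724).

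The remaining 4 mevalonate genes were not called in any comparison. Mvd, the decarboxylase just before Idi1 in the pathway, was 37.1 and 43.2 CPM in untreated, 43.5 and 48.4 in LPS Fth1-low, and 36.3, 61.8 and 45.8 in LPS Fth1-high libraries. Its LPS Fth1-high libraries spanned both other groups. Mvk and Pmvk, the mevalonate kinases, ranged over the 7 libraries from 1.67 to 8.24 and from 10.8 to 30.0 CPM. Acat2, the cytosolic thiolase at the head of the pathway, ranged from 5.76 to 10.9 CPM.

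**Figure D3:**
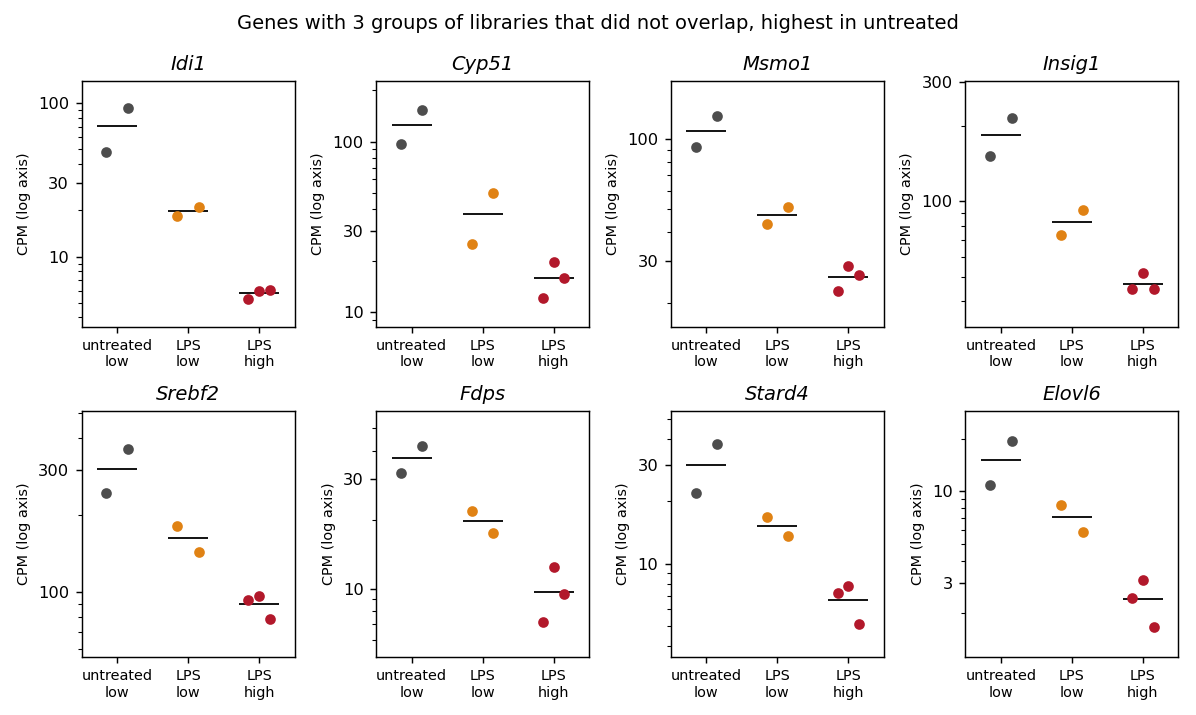
CPM (log axis) of the 8 genes whose 3 groups did not overlap, each point a library and each bar the group mean. In every panel the untreated libraries are highest, the LPS Fth1-low libraries lie between, and the LPS Fth1-high libraries are lowest; Idi1 runs from 93.0 down to 5.24 CPM.

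The steps from squalene to cholesterol, the role with the most genes, also held the most called genes. Of 11, 6 were lower in LPS Fth1-high against untreated cells (54.5%, against 11.9% of all genes; median -1.34). The share there was 42.9% for the mevalonate steps, 40% for the SREBP system and 33.3% for fatty acid synthesis, and Stard4 was called too. In LPS Fth1-low against untreated 3 of the 11 were lower (27.3%, against 0.629% of all genes). Between the LPS gates 2 were (18.2%, against 4.57%). Cyp51, the lanosterol demethylase, was 97.4 and 154 CPM in untreated, 25.1 and 49.9 in LPS Fth1-low, and 12.1, 19.7 and 15.8 in LPS Fth1-high libraries. The groups did not overlap, although the LPS Fth1-low libraries differed from each other more than the LPS Fth1-high libraries did on the CPM scale. The counting interval of LPS Fth1-low replicate 1 reached the LPS Fth1-high range. Cyp51 fell by 2.98 ± 0.31 over both differences together (adjusted p = 1.26e-04, 7.88-fold lower), by 1.38 ± 0.32 between the gates (adjusted p = 0.0283) and by 1.60 ± 0.36 with LPS in Fth1-low cells (adjusted p = 0.0421). Without LPS Fth1-low replicate 2 the gate difference was -0.67 (adjusted p = 0.484) and the LPS difference -2.33 (adjusted p = 0.0614).

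Msmo1, the methylsterol oxidase that acts after Cyp51, followed the same order. It was 92.0 and 125 CPM in untreated, 43.5 and 51.3 in LPS Fth1-low, and 22.4, 28.7 and 26.3 in LPS Fth1-high libraries. It fell by 2.07 ± 0.20 in LPS Fth1-high against untreated (adjusted p = 9.77e-05, 4.19-fold lower), by 0.91 ± 0.22 between the gates (adjusted p = 0.034) and by 1.16 ± 0.24 with LPS (adjusted p = 0.0312). Sc5d, the lathosterol oxidase late in the pathway, had another pattern. It was 37.9 and 48.8 CPM in untreated, 11.7 and 16.5 in LPS Fth1-low, and 10.9, 12.6 and 11.0 in LPS Fth1-high libraries, so both LPS groups overlapped far below untreated. Sc5d fell by 1.50 ± 0.26 in LPS Fth1-low (adjusted p = 0.0116) and by 1.90 ± 0.21 in LPS Fth1-high against untreated cells (adjusted p = 1.64e-04), and differed by -0.40 ± 0.23 between the gates (adjusted p = 0.373).

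Sqle, the squalene epoxidase, a rate-limiting enzyme of this branch, was 41.8 and 68.0 CPM in untreated, 15.1 and 18.5 in LPS Fth1-low, and 8.23, 16.0 and 8.66 in LPS Fth1-high libraries. It fell by 2.31 ± 0.32 in LPS Fth1-high against untreated (adjusted p = 7.04e-04, 4.97-fold lower) and differed by -1.64 ± 0.40 in LPS Fth1-low, which edgeR did not call (adjusted p = 0.0617) and DESeq2 did (adjusted p = 0.00605). Fdft1, which makes squalene, was 29.4 and 43.0 CPM in untreated, 10.0 and 17.4 in LPS Fth1-low, and 12.0, 17.7 and 13.1 in LPS Fth1-high libraries. It fell by 1.34 ± 0.26 in LPS Fth1-high against untreated (adjusted p = 0.00529), with the LPS groups overlapping. Hsd17b7, a sterol ketone reductase, fell by 1.93 ± 0.53 (adjusted p = 0.0248) at low levels, 7.12 and 17.3 CPM in untreated and 1.73 to 4.92 in LPS Fth1-high libraries. Without untreated replicate 2, Fdft1 (adjusted p = 0.0711) and Hsd17b7 (-1.16, adjusted p = 0.289) were not called, nor was Hsd17b7 without LPS Fth1-high replicate 1 (adjusted p = 0.0531) or 3 (adjusted p = 0.0802).

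The other 5 genes of these steps were not called in any comparison. Lss, the lanosterol synthase that lies between Sqle and Cyp51, was 6.91 and 10.2 CPM in untreated, 3.35 and 4.32 in LPS Fth1-low, and 7.30, 6.91 and 4.10 in LPS Fth1-high libraries, and its LPS Fth1-high libraries overlapped both other groups. Ebp, the sterol isomerase, ranged from 41.2 to 60.8 CPM and Nsdhl, the sterol dehydrogenase, from 11.6 to 25.1 CPM over the 7 libraries. Dhcr7, the reductase of the last step, ranged from 14.7 to 21.9 CPM and the sterol reductase gene Tm7sf2 from 2.92 to 6.70 CPM. For these 4 genes the LPS Fth1-high range overlapped that of the untreated libraries.

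**Figure D4:**
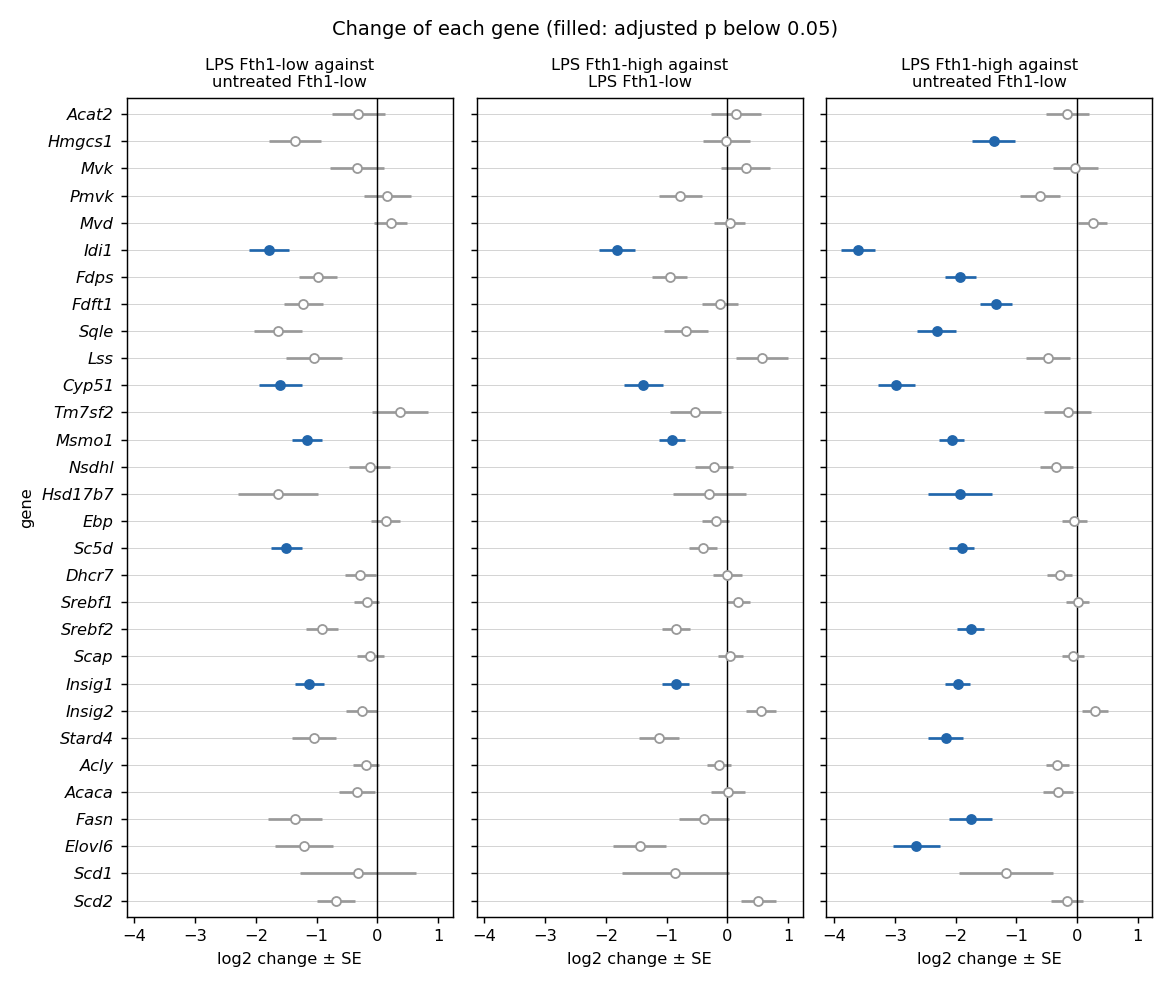
Log2 change ± SE of each gene in LPS Fth1-low against untreated (left), LPS Fth1-high against LPS Fth1-low (middle) and LPS Fth1-high against untreated cells (right); filled blue points have an adjusted p below 0.05. The filled points, 5, 4 and 14 from left to right, all lie below 0.

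The SREBP system split between related genes. Insig1 and Srebf2 fell, while Insig2, Srebf1 and Scap were not called in any comparison. Insig1 was 152 and 215 CPM in untreated, 73.7 and 92.0 in LPS Fth1-low, and 44.5, 51.5 and 44.4 in LPS Fth1-high libraries, with no overlap between groups. It fell by 1.97 ± 0.21 in LPS Fth1-high against untreated (adjusted p = 1.62e-04, 3.92-fold lower), by 0.85 ± 0.22 between the gates (adjusted p = 0.0466) and by 1.12 ± 0.25 with LPS (adjusted p = 0.0396). Insig2, the second sterol-sensing anchor, was 18.9 and 16.8 CPM in untreated, 10.0 and 16.7 in LPS Fth1-low, and 20.9, 22.8 and 22.1 in LPS Fth1-high libraries. Its LPS Fth1-high libraries were the highest of the 7, but the differences of 0.56 ± 0.24 between the gates (adjusted p = 0.215) and 0.30 ± 0.21 against untreated (adjusted p = 0.36) were not called.

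Srebf2 was 243 and 363 CPM in untreated, 182 and 144 in LPS Fth1-low, and 93.8, 97.2 and 78.7 in LPS Fth1-high libraries. It fell by 1.76 ± 0.23 in LPS Fth1-high against untreated (adjusted p = 4.89e-04, 3.38-fold lower). Its separate differences, -0.84 ± 0.24 between the gates (adjusted p = 0.0612) and -0.91 ± 0.26 with LPS (adjusted p = 0.119), were not called by edgeR but were by DESeq2 (adjusted p = 0.0103 and 0.0303). Srebf1 was 72.0 and 88.7 CPM in untreated, 72.0 and 70.5 in LPS Fth1-low, and 84.7, 81.8 and 75.6 in LPS Fth1-high libraries. The untreated libraries of Srebf1 span the LPS Fth1-high ones. Scap, the escort protein, ranged from 39.2 to 51.9 CPM over all libraries. Per kilobase of exon, mean levels of Insig1 and Srebf2 were 59.3 and 42.2 CPM in untreated and 15.1 and 12.5 CPM in LPS Fth1-high cells, where Srebf1 was 14.3 CPM in both.

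Stard4, which carries sterol between membranes and is an SREBP target, was 22.0 and 37.9 CPM in untreated, 16.7 and 13.6 in LPS Fth1-low, and 7.17, 7.76 and 5.09 in LPS Fth1-high libraries. The groups did not overlap, but the counting interval of LPS Fth1-low replicate 1 reached the untreated range. Stard4 fell by 2.16 ± 0.29 in LPS Fth1-high against untreated (adjusted p = 5.67e-04); the gate difference of -1.12 ± 0.33 (adjusted p = 0.0695) and the LPS difference of -1.04 ± 0.36 (adjusted p = 0.207) were not called.

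Fatty acid synthesis genes changed in part. Of 6, 2 were called lower in LPS Fth1-high against untreated cells (33.3%, against 11.9% of all genes). Their median log2 change was -0.75, against 0.03 for all genes. In the other comparisons 0 were called lower, against 4.57% of all genes between the LPS gates and 0.629% with LPS. Elovl6, which elongates palmitate, was 10.8 and 19.5 CPM in untreated, 8.37 and 5.86 in LPS Fth1-low, and 2.45, 3.09 and 1.66 in LPS Fth1-high libraries. These groups did not overlap, and Elovl6 fell by 2.65 ± 0.39 in LPS Fth1-high against untreated (adjusted p = 9.59e-04, 6.28-fold lower). For Elovl6 the counting interval of LPS Fth1-low replicate 1 reached both neighbouring groups. Fasn, the fatty acid synthase, was 51.9 and 102 CPM in untreated, 46.9 and 22.5 in LPS Fth1-low, and 23.8, 27.9 and 17.0 in LPS Fth1-high libraries. Fasn fell by 1.75 ± 0.35 (adjusted p = 0.00628), a call that was lost without untreated replicate 2 (-1.18, adjusted p = 0.0733).

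The genes that supply Fasn were not called. Acly, which makes cytosolic acetyl-CoA from citrate, was 253 and 307 CPM in untreated, 238 and 252 in LPS Fth1-low, and 240, 230 and 200 in LPS Fth1-high libraries, a difference of -0.33 ± 0.19 from untreated (adjusted p = 0.251). Per kilobase of exon its mean was 42.3 CPM in LPS Fth1-high cells, the highest of the 30 there, where that of Idi1 was 1.64 and of Elovl6 0.373. Acaca, the acetyl-CoA carboxylase, ranged from 15.0 to 26.8 CPM. The desaturase gene Scd2 was 78.0 and 139 CPM in untreated, 58.6 and 73.4 in LPS Fth1-low, and 114, 92.9 and 82.1 in LPS Fth1-high libraries, which lay within the untreated range. Scd1, its near relative, was 43.5 and 7.74 CPM in untreated, 28.5 and 17.4 in LPS Fth1-low, and 17.2, 4.39 and 13.0 in LPS Fth1-high libraries, and the gap between the untreated libraries exceeded every difference between group means.

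Some calls rested on single libraries. Of the 14 genes called in LPS Fth1-high against untreated cells, 10 were called under each of 15 alternative settings (Idi1, Fdps, Sqle, Cyp51, Msmo1, Sc5d, Srebf2, Insig1, Stard4 and Elovl6). Of the 4 and 5 genes called in the other comparisons, 0 were called under each setting. Between the gates, Idi1 was lost only without LPS Fth1-low replicate 2 (-1.68, adjusted p = 0.156), which leaves the shallow library alone in its group. Cyp51 was lost without that library or without LPS Fth1-high replicate 1 or 3 (adjusted p = 0.0624 and 0.084), and Msmo1 and Insig1 without any 1 of the 5 LPS libraries (adjusted p from 0.0606 to 0.209). With LPS in Fth1-low cells, Sc5d was lost only without untreated replicate 2 (-1.32, adjusted p = 0.105), and Idi1 without that library (-1.25, adjusted p = 0.0995) or either LPS Fth1-low library (adjusted p = 0.0991 and 0.101). Cyp51, Msmo1 and Insig1 were lost there without any 1 untreated or LPS Fth1-low library (adjusted p from 0.0542 to 0.267) or without LPS Fth1-high replicate 3, Msmo1 and Insig1 also without replicate 2, and Insig1 also without replicate 1. The called genes of each comparison kept a negative sign in all 15 settings.

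Untreated replicate 2 was above replicate 1 for 27 of the 30 genes, where this held for 6134 of 13665 genes tested. In both the untreated and the LPS Fth1-high group, replicate 2 was the highest library for 19 of the 30 (63.3%), against 12.1% of all genes. Hmgcs1 was 1.80 times as high in untreated replicate 2 as in replicate 1, and 1.71 times as high in LPS Fth1-high replicate 2 as in the mean of replicates 1 and 3. Scd1 went the other way, at 0.178 and 0.290 times. Libraries of 1 group also differed in Xist, which is transcribed from the inactive X chromosome of females, and in the Y-linked Ddx3y, both named after their values were seen. Untreated replicate 1 had 3.58 CPM of Xist and 97.9 of Ddx3y, and replicate 2 had 274 and 0.186. In LPS Fth1-high replicates 1, 2 and 3, Xist was 34.8, 1.95 and 363 CPM and Ddx3y 78.3, 68.8 and 1.66 CPM. Replicate 2 was thus high in Xist in the untreated group and low in it in the LPS Fth1-high group. LPS Fth1-low replicates 1 and 2 held both transcripts, with Xist at 72.0 and 176 CPM and Ddx3y at 68.6 and 37.2 CPM. The part of sex in the differences between libraries was not tested.

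Other genes of the pathways were read from lists of 27 sterol and 22 fatty acid genes, of which 25 and 19 were tested. In LPS Fth1-high against untreated cells the sterol list had 5 genes called lower and 6 higher (20% and 24% of those tested; median 0.20), and the fatty acid list 6 lower and 2 higher (31.6% and 10.5%; median 0.22), where 11.9% and 12.4% of all genes were called. On the sterol list Erlin1, whose product acts with the Insig proteins in sterol-regulated protein turnover, fell by 0.96 ± 0.18 (adjusted p = 0.00418) and Acat1, the mitochondrial thiolase, by 0.79 ± 0.19 (adjusted p = 0.0149), lost without untreated replicate 1 (adjusted p = 0.13) or LPS Fth1-high replicate 1 or 3 (adjusted p = 0.0502 and 0.0599).

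Several genes of cholesterol export and storage were called higher. Abca1 was 13.6 and 13.2 CPM in untreated, 33.5 and 80.5 in LPS Fth1-low, and 586, 752 and 615 in LPS Fth1-high libraries, higher by 5.60 ± 0.38 in LPS Fth1-high against untreated (adjusted p = 1.16e-05). Abcg1 was 76.6 and 90.2, then 157 and 214, then 438, 329 and 456 CPM in the same order, higher by 2.29 ± 0.25 (adjusted p = 1.68e-04). Both ran opposite to Idi1 across the 3 groups. The lysosomal exporter Npc1 was higher by 1.77 ± 0.29 between the gates (adjusted p = 0.00624; 2.46 without LPS Fth1-low replicate 2) and was 105 and 110 CPM in untreated against 67.0 and 140 in LPS Fth1-low libraries. Nr1h3, which encodes LXR alpha, rose by 2.38 ± 0.42 in LPS Fth1-high against untreated (adjusted p = 0.00324), as did Soat1, which esterifies cholesterol, by 0.71 ± 0.21 (adjusted p = 0.0366). The Soat1 call was lost without either untreated library, without LPS Fth1-high replicate 2 or 3, and with no low-count filter (adjusted p from 0.0554 to 0.255). Ch25h, which makes an oxysterol, rose by 3.97 ± 0.74 (adjusted p = 0.00396), a size that rests on 25 and 1 counts in the untreated libraries and was 6.67 without the first of them and 3.29 without the second.

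**Figure D5:**
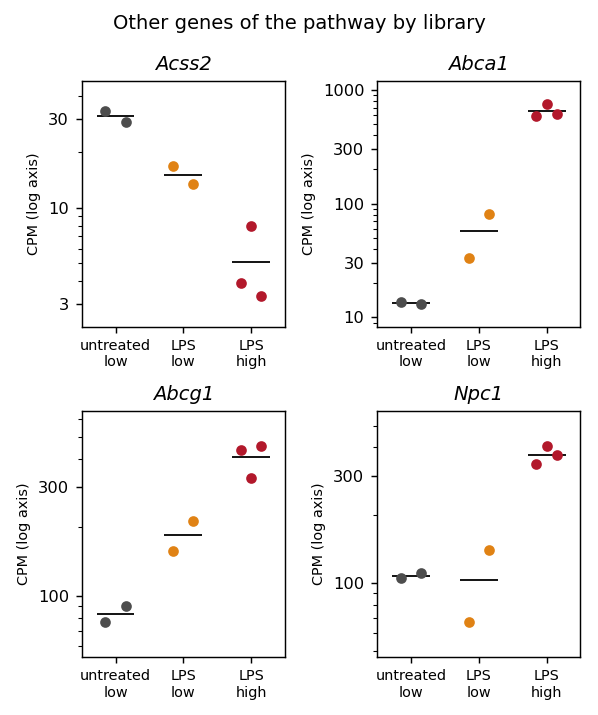
CPM (log axis) of 4 other genes of cholesterol and acetyl-CoA metabolism, each point a library and each bar the group mean. Acss2 is lowest and Abca1, Abcg1 and Npc1 highest in the 3 LPS Fth1-high libraries; Abca1 runs from 13.2 to 752 CPM.

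On the fatty acid list Acss2, which makes acetyl-CoA from acetate, was 33.1 and 29.2 CPM in untreated, 16.7 and 13.4 in LPS Fth1-low, and 3.91, 8.01 and 3.32 in LPS Fth1-high libraries. Its groups did not overlap, and it fell by 2.61 ± 0.35 in LPS Fth1-high against untreated (adjusted p = 5.93e-04). The elongase gene Elovl5 fell by 1.35 ± 0.21 (adjusted p = 0.00147), the phosphatidate phosphatase gene Lpin1 by 2.83 ± 0.42 (adjusted p = 0.00123), Mid1ip1 by 1.29 ± 0.18 (adjusted p = 7.13e-04) and Aacs, which activates acetoacetate, by 1.29 ± 0.22 (adjusted p = 0.00272). Elovl7, at most 3.26 CPM, was the sixth called lower, but not without untreated replicate 2 (adjusted p = 0.133) or LPS Fth1-high replicate 2 (adjusted p = 0.0639). Fads1, the delta-5 fatty acid desaturase, ran the other way, from 4.87 and 2.70 CPM in untreated to 29.6, 37.9 and 33.7 in LPS Fth1-high libraries, a rise of 3.12 ± 0.31 (adjusted p = 9.70e-05). Acsl4, an acyl-CoA synthetase, rose by 1.04 ± 0.23 (adjusted p = 0.0101; 0.103 without untreated replicate 1), and Fads2 was not called (adjusted p = 0.23).

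Dividing cells make membrane lipid, and genes of proliferation were read beside these values. Of 18, 3 were called higher and 0 lower in LPS Fth1-high against untreated cells (Mki67, Mcm3 and Mcm6), 16.7% of the list against 12.4% of all genes, and their summed CPM was 157 to 159 in untreated, 185 to 223 in LPS Fth1-low and 250 to 343 in LPS Fth1-high libraries. Mki67 was 8.91 and 13.2 CPM, 41.9 and 39.0 CPM, and 78.6, 142 and 91.6 CPM in these groups, the opposite order to Idi1.

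Genes listed as markers of other cells moved with the groups in part. Bulk counts do not show whether such cells or the sorted monocytes and macrophages made these transcripts. The summed CPM of 10 alveolar type 2 epithelial markers, a cell type that makes surfactant lipid, was 1809 to 2636 in untreated, 1179 to 1697 in LPS Fth1-low and 820 to 1117 in LPS Fth1-high libraries, the order of the sterol genes. Most of it came from Lyz1 and Napsa, which were named after their values were seen. The surfactant gene Sftpc did not follow that order. It was 494 and 1.40 CPM in untreated, 5.02 and 68.2 in LPS Fth1-low, and 8.29, 2.07 and 40.5 in LPS Fth1-high libraries. Untreated replicate 2 had the lowest Sftpc and the highest summed CPM of the 30 genes. Scd1 and Sftpc were both highest in untreated replicate 1. In LPS Fth1-low libraries Scd1 was 28.5 and 17.4 CPM, the opposite order to Sftpc. In LPS Fth1-high libraries Scd1 was 17.2, 4.39 and 13.0 CPM, lowest in replicate 2 as Sftpc was. The 11 alveolar macrophage markers summed to 1755 to 1963, 3325 to 5933 and 533 to 1947 CPM in the 3 groups, most of it Chil3, with Siglecf between 0.732 and 5.02 CPM. In LPS Fth1-high against untreated cells 4 of these 11 were called lower (36.4%) and 2 higher (18.2%), against 11.9% and 12.4% of all genes. Pparg, a lipid-sensing nuclear receptor, fell by 3.99 ± 0.63 (adjusted p = 0.00236). Ear2, named after its values were seen, was 447 and 257 CPM in untreated, 109 and 89.0 in LPS Fth1-low, and 4.45, 4.39 and 10.9 in LPS Fth1-high libraries. It ran in the order of the sterol genes and fell by 5.73 ± 0.45 (adjusted p = 3.03e-05). Also named after their values were seen, the fatty acid binding protein genes parted, Fabp4 falling by 3.89 ± 0.55 (adjusted p = 8.26e-04) and Fabp5 rising by 3.78 ± 0.44 (adjusted p = 2.91e-04). Of the 8 monocyte and macrophage markers 4 were called higher (50%) and 1 lower (12.5%) in that comparison, against 12.4% and 11.9% of all genes. The one lower was the monocyte chemokine receptor gene Ccr2 (-2.55 ± 0.39, adjusted p = 0.00139). Among those higher, the macrophage marker Adgre1 rose by 1.92 ± 0.33 (adjusted p = 0.00253). The monocyte marker Ly6c2 rose as well, by 1.78 ± 0.33 (adjusted p = 0.00387), so the monocyte markers Ccr2 and Ly6c2 went opposite ways. Ccr2, Adgre1 and Ly6c2 were named after their values were seen. Sums for dendritic cells were 198 to 220, 266 to 300 and 127 to 195 CPM, for endothelium 59.3 to 276, 110 to 131 and 33.7 to 131 CPM, and for B cells 30.3 to 67.0, 14.2 to 80.4 and 6.26 to 30.2 CPM. T and NK cell markers summed to at most 28.6 CPM and fibroblast markers to at most 127 CPM in any library, and no marker gene was at 0 in all libraries. Neutrophil markers summed to 93.0 to 114, 166 to 333 and 62.5 to 136 CPM. Of the 8 tested, 2 were called lower between the LPS gates (25%, against 4.57% of all genes). They were Mmp8 (-2.53 ± 0.46, adjusted p = 0.0109) and S100a9 (-2.33 ± 0.48, adjusted p = 0.0188), both named after their values were seen. The part of these markers in the changes of the 30 genes was not tested.

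Reads of some of the 30 genes may be shared. Of the 58-base words of their transcripts, 37.4% for Acat2, 29.1% for Acaca, 25.2% for Fdps, 17.4% for Idi1, 9.53% for Tm7sf2 and 7.79% for Fdft1 also occur in another annotated gene, so these levels are uncertain. The share was 0 for Cyp51, Sqle, Hsd17b7, Fasn and Stard4. Cyp51 overlaps Akap9, Fdft1 overlaps Ctsb, Srebf1 overlaps Rai1 and Hmgcs1 overlaps Gm48342 on the opposite strand, and no source used here says whether counting used strand. Some of the 30 overlap genes on their own strand, which strand cannot separate. Among these, Fdps overlaps Gm22935 and Gm43738, Srebf2 overlaps Gm49502 and Mir33, Elovl6 overlaps Gm43072 and Tm7sf2 overlaps Vps51. Msmo1 (chromosome 8, 64718139 to 64733792), Insig1 (chromosome 5, 28071363 to 28078662) and Sc5d (chromosome 9, 42251595 to 42264256) overlap no other annotated gene.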

How the data were processed

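The 7 libraries were made from polyadenylated RNA of the sorted cells (25 ng a library, stranded mRNA kit, 15 cycles of PCR) and read as pairs of 58 bases. The deposited values are raw counts per gene. Per the submitters' processing notes, DRAGEN, DESeq2 and the build mm10 were used by the authors; versions, annotation and counting strand: not given in the sources used here. In R 4.3.3, edgeR 4.0.16 filtered genes (filterByExpr), scaled libraries (TMM) and fitted 1 robust quasi-likelihood model of 3 groups to 7 libraries (residual df 4). Differences were tested two-sided, adjusted by Benjamini-Hochberg over 13665 genes and called below 0.05. SE was derived from the log2 change and the F statistic (size of the change divided by the root of F). The procedure was tested on simulated data. The 30 genes, the other lists and the rule for named genes were chosen with earlier results of these data known. That rule was all 30 genes, called genes of the other pathway lists plus 5 more whatever their result, some of which are not reported here, and the first 3 genes of each marker list. Only some are named. Poisson intervals cover counting error only. Positions and overlaps are from GENCODE vM21 and promoters from RefSeq; protein sequences were not analysed here. Alternatives were RLE scaling, 2 other filters, DESeq2 1.42.0, limma 3.58.1 with voom, fits of 2 groups, ribosomal RNA genes left out, the replicate number as a block and each library left out in turn.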

Additional observations from a re-analysis of the deposited data

How the results depend on the processing

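Of 30 genes, 0 were called higher in any comparison under any of the 15 settings. In LPS Fth1-high against untreated cells the number called lower was 14 in 7 settings and 15 with the replicate block. Leaving out 1 library gave 10 to 14, the 10 without untreated replicate 2, where the median of the 30 was -0.58. Between the LPS gates DESeq2 called 5, no low-count filter 6 and the replicate block 3, and leaving out 1 library gave 0 to 4, the 0 without LPS Fth1-low replicate 2. With LPS in Fth1-low cells, against untreated, DESeq2 called 8, limma-voom 3, no filter 7, the fit of 2 groups 7 and the replicate block 9, and leaving out 1 library gave 0 (without untreated replicate 2) to 4. The cause was not tested. Where 1 library remains in a group, it is assumed to vary like the others. Scd1 in LPS Fth1-high against untreated ran from -1.92 (without untreated replicate 2) to 0.57 (without untreated replicate 1, a reversed sign). Of the genes not called, 10 of 26, 5 of 25 and 7 of 16 changed sign in some setting (between the gates, with LPS, and both together). Whether replicate numbers pair the libraries could not be settled. Deviations from the group mean of same-numbered libraries correlated at -0.04 (untreated with LPS Fth1-low), 0.10 and 0.29 (untreated with LPS Fth1-high). For LPS Fth1-low with Fth1-high the values were 0.27 and 0.09. In a group of 2 libraries the deviations mirror each other, and libraries of different number were not compared. Depth limits the values of LPS Fth1-low replicate 1, where Mvk and Hsd17b7 had 1 count each. This limit was not confined to the lowest levels. Cyp51, at 25.1 CPM there, rested on 15 counts, with a Poisson interval of 14.1 to 41.4 CPM. Hmgcs1, at 33.5 CPM there, rested on 20 counts, with an interval of 20.5 to 51.7 CPM. Among other pathway genes, Acss2 between the gates, Soat1 in LPS Fth1-high against untreated and Mid1ip1 with LPS in Fth1-low cells each lost their call in several settings (adjusted p up to 0.197, 0.255 and 0.184). Some members gained a call. With LPS in Fth1-low cells Sqle was called by DESeq2 (0.00605), in the fit of 2 groups (0.00191), with no filter (0.0237), with the block (3.75e-04) and without LPS Fth1-high replicate 2 (0.021); Hmgcs1 by DESeq2 (0.0145), in the fit of 2 groups (0.0172) and with the block (0.00109); and Fdft1 with no filter (0.0451), in the fit of 2 groups (0.0453) and with the block (0.0148). Stard4 between the gates was called with no filter (0.0375). With the block Scd1 was called lower in LPS Fth1-high against LPS Fth1-low (-1.55, adjusted p = 0.00281) and against untreated cells (-1.13, adjusted p = 0.0155). Limma-voom lost Cyp51 and Insig1 with LPS in Fth1-low cells (adjusted p = 0.0649 and 0.0519), and the replicate block lost Msmo1 and Insig1 between the gates (0.0805 and 0.134) and Acat1 and Soat1 in LPS Fth1-high against untreated cells (0.0542 and 0.123).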
